A study of Mus musculus with 8 samples.

Results

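The genes described here form the program that sets up the branchiomeric muscles, the muscles of the jaw, face and throat that arise from mesoderm inside the pharyngeal (branchial) arches. They are 9 genes taken by symbol from a table of 23420 genes: Tcf21, Msc and Lhx2, which mark and act in the arch muscle progenitors, Myf5 and Myod1, which commit cells to skeletal muscle, Myog and Myf6, which act as those cells differentiate, and Chrna1 and Musk, which serve the later contact between nerve and muscle. Transcripts were counted in 8 libraries, 1 per embryo, from hand-dissected pharyngeal arches together with the looping heart at 10.5 days post coitum. Of these, 4 embryos were Pygo2 wild-type and 4 were Pygo2 mutant littermates. Neither the altered part of Pygo2 nor the strain is named in the labels, and no other allele or treatment is given for either group. The comparison asks which genes of the arches and heart differ when Pygo2, a nuclear protein that works with Bcl9 proteins and β-catenin in Wnt signalling, is mutated. Levels are given in CPM, counts scaled to library size by the TMM method, and ± marks the SD over the 4 embryos of a group.

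In trunk muscle the myogenic program is entered from the somites, whereas in the head it is entered from arch mesoderm that expresses Tbx1, Tcf21 and Msc. In both places the program then runs through the same family of basic helix-loop-helix factors, Myf5, Myod1, Myf6 and Myog, which pair with widely expressed partners such as Tcf3 and Tcf12 and bind a short DNA motif called the E-box. At this stage of mouse development arch muscle is only beginning to be determined.

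Library totals lay between 2.08e+07 and 2.82e+07 counts. Pygo2 ranged from 44.6 to 56.2 CPM among wild-type and from 17.3 to 21.97 CPM among mutant libraries, 37.9% of the wild-type mean, and was the only gene of 14861 tested that passed (edgeR quasi-likelihood adjusted p = 0.00805), a call that was lost when wild-type 1 or 2 or mutant 2, 3 or 4 was left out. Wild-type 4 carried 4.83% of its counts in Rn45s, the ribosomal RNA precursor, while no single gene took more than 1.3997% in any other library. Libraries with the same number in the labels deviated from their group means across genes with correlations of 0.18 to 0.71. Differently numbered libraries had correlations of -0.65 to 0.67. Wild-type 1 with mutant 2 (0.52) and wild-type 3 with mutant 4 (0.67) exceeded the libraries numbered 2 (0.19) and 4 (0.18). Markers of both labelled tissues were present: arch mesenchyme markers summed to between 321.5 and 622.5 CPM and heart muscle markers to between 7849 and 24850 CPM. In such bulk samples fewer cells of a type and less RNA per cell cannot be told apart.

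The promoters of 6 of the 9 genes are held by the RefSeq table of the GRCm38.p6 build, and those of 2 genes at the downstream end of the program are shown because they hold E-boxes, the motif that the myogenic factors bind. Each line is the stretch of 250 bases before the RefSeq start, 5′ to 3′ on the gene's strand, and capitals mark each match to the E-box letters CANNTG, which read the same on both strands. Myog lies on the plus strand of chromosome 1 (shown: chr1:134289754-134290003, whose last bases lie past the GENCODE start at 134289989) and Chrna1 on the minus strand of chromosome 2 (shown: chr2:73580339-73580588).
Myog: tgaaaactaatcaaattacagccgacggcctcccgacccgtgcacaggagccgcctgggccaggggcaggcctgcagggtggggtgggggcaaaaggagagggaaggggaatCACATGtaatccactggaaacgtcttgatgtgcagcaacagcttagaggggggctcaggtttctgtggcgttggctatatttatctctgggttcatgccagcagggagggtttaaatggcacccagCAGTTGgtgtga
Chrna1: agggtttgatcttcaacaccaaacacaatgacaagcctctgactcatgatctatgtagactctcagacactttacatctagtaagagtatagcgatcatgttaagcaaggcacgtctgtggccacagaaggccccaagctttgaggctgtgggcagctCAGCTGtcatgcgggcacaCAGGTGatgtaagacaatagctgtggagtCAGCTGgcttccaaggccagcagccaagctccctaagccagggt

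The Myog window held 2 E-boxes, CACATG and CAGTTG. The Chrna1 window held 3, of which 2 had the letters CAGCTG. Musk also had 3, with 1 CAGCTG, while the windows of Myf5, Tcf21 and both starts of Lhx2 had 0. Among all 32851 promoter windows of the same length, 66.2% held at least 1 E-box, 12.2% held 3 or more, 13.0% held CAGCTG and 1.26% held CAGCTG more than once. These matches describe letters and not bound sites.

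None of the muscle genes passed the test between genotypes. Of the 9, 7 had enough counts to be tested and 0 passed at an adjusted p under 0.05 (edgeR quasi-likelihood, adjusted over all genes; 0.00673% of genes tested were called), each with an adjusted p of 0.99998. The mean was lower in mutants for 6 of the 7, against 7431 of the 14861 genes tested, and the median log2 fold change was -0.52 against 0.00 over all genes. That count rested on wild-type 4: without it 3 of 7 were lower and the median was 0.03. At an unadjusted p under 0.05 there was 1 member, Myf5, against 1.30% of all genes in either direction and 0.814% lower in mutants. With the replicate number as a block there were 2, Myf5 and Tcf21, against 5.01% of all genes, and 0 members passed after adjustment (0.00673% of genes, Pygo2 alone). In 0 of the 7 did the groups separate without overlap, against 1.04% of genes tested. The other 2 genes, Myf6 and Musk, were below the limit for testing in the main comparison.

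**Figure D1:**
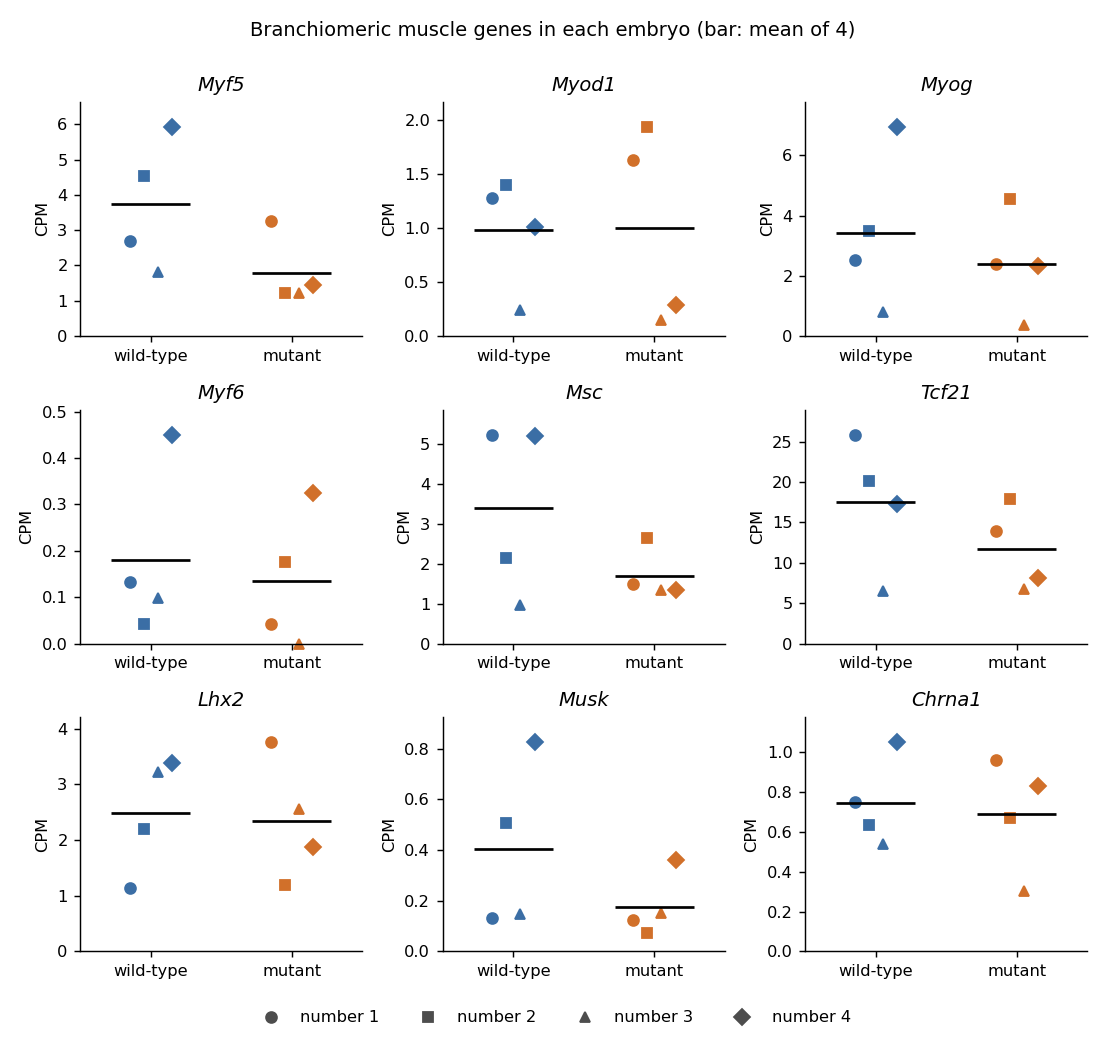
Level of each gene in CPM (vertical axes, each starting at 0) in the 4 wild-type and 4 mutant embryos; marker shape gives the library number and bars give group means. The groups overlap in all 9 panels, and the libraries numbered 3 are the lowest of their group for Myod1 and Myog.

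Of the progenitor genes, Tcf21 and Msc had lower means in mutants that did not pass the test, and Lhx2 had nearly equal means. Tcf21 (chromosome 10, 22817281 to 22820174, minus strand, GRCm38 here and below) is a basic helix-loop-helix factor of arch muscle progenitors that also marks the epicardium. It was the most abundant member, with 587, 476, 134 and 462 counts in wild-type 1 to 4 and 333, 508, 180 and 226 in mutant 1 to 4. These correspond to 25.9, 20.2, 6.55 and 17.3 CPM in wild-type and to 13.9, 17.9, 6.78 and 8.16 CPM in mutants. Wild-type 3 and mutant 3 were the lowest of all 8 libraries, with mutant 3 slightly above, while the other 3 mutants each lay below the wild-type of the same number. Group means were 17.5 ± 8.10 CPM for wild-type and 11.7 ± 5.16 CPM for mutants (SD, n = 4 each). The fitted log2 difference was -0.58 (SE 0.42), and its 95% interval reached from -1.53 to 0.37. With the block it was -0.54 (SE 0.20; adjusted p = 0.968 by edgeR). The sum of epicardium markers was 293.6, 275.9, 142.2 and 208.2 CPM in wild-type and 265.5, 258.2, 128.7 and 114.8 CPM in mutants, and 0 of the 8 markers were at 0 in any library. Both this sum and Tcf21 were highest in wild-type 1, then in wild-type 2, and both were low in wild-type 3, mutant 3 and mutant 4. The sum was lowest in mutant 4 and Tcf21 in wild-type 3. In wild-type 4 the sum was lower than in mutant 1, where Tcf21 was the other way. The part of the epicardium in the Tcf21 values was not tested.

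Msc, also called MyoR, is a related repressor that acts with Tcf21 in the muscles of the jaw (chromosome 1, 14753346 to 14755992, minus strand). It was at 5.25, 2.16, 0.978 and 5.22 CPM in wild-type 1 to 4 and at 1.504, 2.64, 1.36 and 1.34 CPM in mutant 1 to 4. Wild-type 1 and 4 lay above every mutant, whereas wild-type 2 lay inside the mutant range and wild-type 3 below it. The mutant mean was 50.3% of the wild-type mean (3.40 ± 2.17 and 1.71 ± 0.626 CPM, SD, n = 4 each). The mutant was the lower one in the pairs numbered 1 and 4 and the higher one in the others. On the log2 scale the fitted difference was -0.99 (SE 0.51, 95% interval -2.13 to 0.15), and a two-sided exact permutation test on CPM had p = 0.257. Of all genes tested 0.404% had a lower fold change; the counts behind it were 20 to 139 per library.

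Lhx2, a LIM homeobox gene of pharyngeal muscle progenitors that is also known from forebrain, eye and limb, lies on the plus strand of chromosome 2 (38339281 to 38369733). It was at 1.15, 2.20, 3.23 and 3.38 CPM in wild-type and at 3.76, 1.20, 2.56 and 1.88 CPM in mutants. Both groups spanned nearly the same range, and mutant 1 was the highest library of all. Its fitted log2 difference was -0.09, and the 95% interval of -1.04 to 0.87 spans mutant levels from 0.486 to 1.82 times those of wild-type. Of the forebrain, eye and neural markers, Six3, Otx2, Rax, Lhx5 and Sox1 were at 0 in at least 1 library. Their summed level, from 32.0 to 340.6 CPM among wild-type and from 33.3 to 433.3 CPM among mutant libraries, was highest in wild-type 3 and mutant 3 and 4; its part in Lhx2 was not tested. In GENCODE M21 Tcf21 and Msc are each overlapped by 1 antisense gene and Lhx2 by 2. Since no source used here states how strand was handled in counting, the counts of these genes could include antisense reads.

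Among the determination genes, Myf5 had a lower mean in mutants and Myod1 nearly equal means. Myf5, the earliest of the family to be expressed in the embryo, lies on the minus strand of chromosome 10 from 107482908 to 107486134 (GRCm38), with Myf6 6718 bases away on the same strand. Its libraries held 61, 107, 37 and 158 counts in wild-type 1 to 4 and 78, 35, 32 and 40 in mutant 1 to 4. The mutants numbered 2, 3 and 4 lay below every wild-type library at 1.23, 1.21 and 1.44 CPM, and mutant 1, at 3.26 CPM, lay inside the wild-type range of 1.81 to 5.93 CPM. Mutants averaged 1.79 ± 0.988 CPM and wild-type 3.74 ± 1.85 CPM (SD, n = 4 each), or 47.7% of the wild-type mean. On the log2 scale the fitted difference was -1.07 (SE 0.45, 95% interval -2.09 to -0.05), and in rank of p Myf5 stood at 148 of 14861 genes. Its unadjusted p was 0.0411 by edgeR's quasi-likelihood test, and a two-sided exact permutation test on CPM, over 70 assignments, had p = 0.114. Without mutant 1 the fitted difference was -1.52, and without wild-type 4 it was -0.76. In the authors' deposited table Myf5 has a log2 fold change of -1.06, a p-value of 0.0282 and a false discovery rate of 1.

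Myod1 (chromosome 7, 46376474 to 46379099, plus strand), which like Myf5 can turn other cells into muscle, was at 1.28, 1.397, 0.245 and 1.01 CPM in wild-type and at 1.63, 1.94, 0.151 and 0.289 CPM in mutants. The spread within a genotype was wider than the difference between the means: the highest mutant was 12.9-fold above the lowest, and mutant 1 and 2 stood above all wild-type libraries while mutant 3 stood below all of them. Counts were 5 in wild-type 3, 4 in mutant 3 and 8 in mutant 4, and 27 to 55 in the other 5 libraries. The fitted log2 difference was 0.02, and its 95% interval of -1.71 to 1.75 spans mutant levels from 0.305 to 3.36 times those of wild-type. By limma-voom it was -0.44 and with the replicate block -0.24, so its sign differed between methods.

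Of the later genes, Myog, which drives determined cells into differentiation, had a wide spread between embryos (chromosome 1, 134289989 to 134292548, plus strand). It had 57, 82, 16 and 185 counts in wild-type 1 to 4 and 57, 129, 10 and 64 in mutant 1 to 4. Both libraries numbered 3 were the lowest of their group, at 0.783 CPM for wild-type and 0.377 CPM for mutant, and wild-type 4 was the highest of all at 6.94 CPM. Means were 3.43 ± 2.60 CPM for wild-type and 2.40 ± 1.70 CPM for mutants (SD, n = 4 each), and the fitted log2 difference was -0.52 (95% interval -2.14 to 1.11). Without wild-type 4 it was 0.09.

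Myf6, also called Mrf4 (107492853 to 107494737), was close to the detection limit, with 3, 1, 2 and 12 counts in wild-type and 1, 5, 0 and 9 in mutants. The highest library of each genotype was the one numbered 4. The 0 counts in mutant 3 allow a level of up to 0.113 CPM (3 counts, counting error only). Summed over libraries there were 18 counts in wild-type and 15 in mutants, and the exact permutation p of the CPM values was 0.686 (two-sided, n = 4 each).

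The genes of the nerve contact were likewise scarce. Chrna1 encodes the alpha subunit of the muscle acetylcholine receptor and was at 0.749, 0.635, 0.538 and 1.05 CPM in wild-type and at 0.961, 0.669, 0.301 and 0.831 CPM in mutants. It was the steadiest of the 9 in wild-type, with a coefficient of variation of 29.9%, where counting error alone gives 23.7%. Its fitted log2 difference was -0.12 (95% interval -0.995 to 0.76), and mutant 3 was the lowest of all libraries. Musk, the receptor tyrosine kinase that gathers acetylcholine receptors at the synapse, had 3, 12, 3 and 22 counts in wild-type and 3, 2, 4 and 10 in mutants. Its mean was 0.403 ± 0.331 and 0.177 ± 0.127 CPM (SD, n = 4 each), a difference smaller than the wild-type SD (exact permutation p = 0.229, two-sided). Wild-type 2 and 4 held most of the wild-type counts, and mutant 4 held most of the mutant counts.

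**Figure D2:**
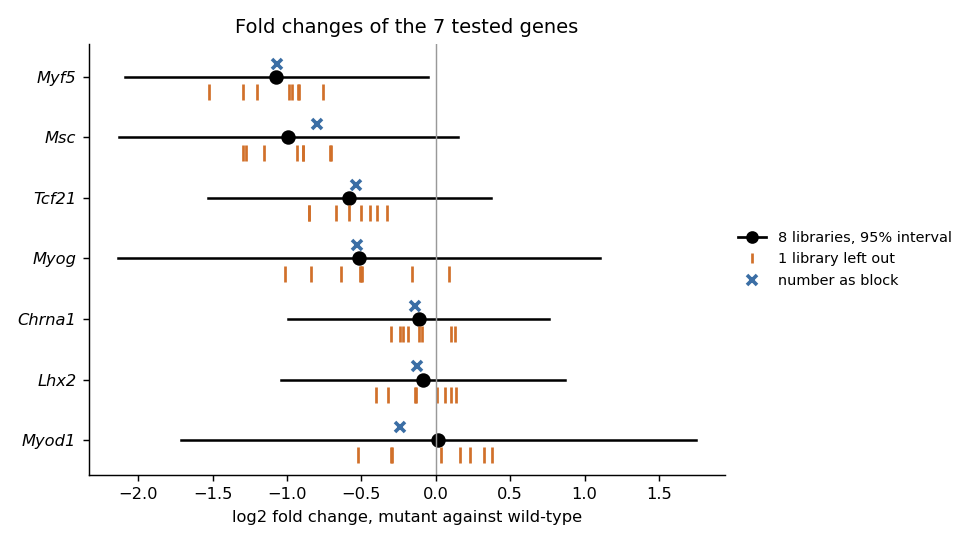
Log2 fold change of mutant against wild-type (horizontal axis) for the 7 tested genes, with 95% intervals (lines), the values with 1 library left out (ticks) and with the replicate number as a block (crosses). Myf5, Msc and Tcf21 stay below 0 with any library left out, whereas Myog, Chrna1, Lhx2 and Myod1 take both signs.

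The coefficient of variation between embryos was above that from counting error alone for all 9 genes in wild-type. With 4 libraries this coefficient is itself uncertain. The gap was not tested and was small for Chrna1. For Tcf21 counting error alone gives a coefficient of variation of 4.91% in wild-type against 46.4% between embryos, and for Myf5 it gives 10.5% against 49.4%. For Myog it gives 10.9% against 75.7%. In the scarcer genes counting took a larger part, at 47.1% against 102% for Myf6, 31.6% against 82.1% for Musk, 20.6% against 52.7% for Myod1 and 23.7% against 29.9% for Chrna1. These figures, like the floors and binomial intervals, cover counting error only.

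Both libraries numbered 3 were low for much of the program: wild-type 3 was among the lowest 2 of the 8 libraries for 5 of the 7 tested genes, and so was mutant 3 for 5. Over the 7 tested genes number 4 showed no such likeness, since wild-type 4 was among the highest 2 for 5 genes and mutant 4 for 0. The untested Myf6 (12 and 9 counts) and Musk (22 and 10 counts) were highest in wild-type 4 and mutant 4 within each genotype. Summed over Myf5, Myod1, Myog and Myf6, the level was 6.61, 9.44, 2.93 and 14.3 CPM in wild-type 1 to 4 and 7.31, 7.89, 1.73 and 4.37 CPM in mutant 1 to 4. The pair numbered 1 was near equal, the pair numbered 3 was low in both genotypes, and the pair numbered 4 held the largest gap. Within that pair the mutant was below the wild-type for all of the 9 genes, with log2 differences of -2.04 for Myf5, -1.97 for Msc and -1.81 for Myod1. Wild-type 4 is also the library with the high share of Rn45s, whose part in these values was not tested. The libraries numbered 3 stood apart in other tissue markers too. Forebrain, eye and neural markers summed to 340.6 CPM in wild-type 3 and 433.3 CPM in mutant 3, the highest of each genotype. Heart muscle markers summed to 8577 and 12665 CPM there, and were lower still in wild-type 4 and mutant 4. The part of these tissues in the low values was not tested.

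**Figure D3:**
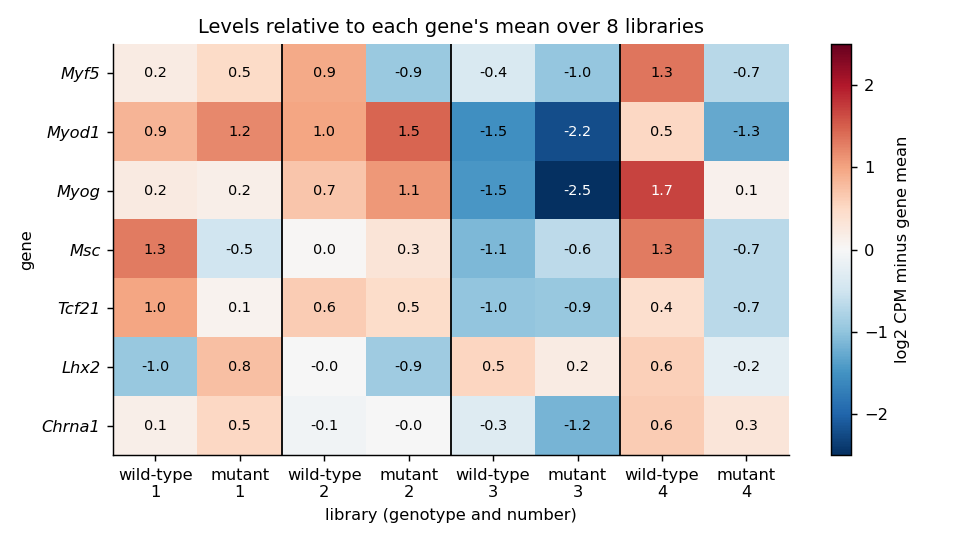
Log2 CPM, with no prior count, of the 7 tested genes minus each gene's mean over the 8 libraries (colour and printed value), with same-numbered libraries side by side. In wild-type 3 and mutant 3 Myod1 is at -1.53 and -2.23, Myog at -1.45 and -2.51 and Tcf21 at -0.99 and -0.94, whereas Lhx2 is at 0.54 and 0.21.

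The make-up of the myogenic factor counts differed between embryos. Myf5 made up 40.7%, 48.0%, 61.7% and 41.4% of the summed counts of the 4 factors in wild-type 1 to 4. In mutants it made up 44.6%, 15.6%, 69.6% and 33.1%. Mutant 2 had the lowest Myf5 share, with an exact 95% binomial interval from 11.1% to 21.05% that lay below the intervals of the other 7 libraries. Its Myog share was 57.6% (50.8% to 64.1%). That of mutant 4 was 52.9% (43.6% to 62.0%) and that of wild-type 4 was 48.4% (43.3% to 53.6%). Myog counts thus exceeded Myf5 counts in these 3 libraries. In the libraries numbered 3 Myf5 counts exceeded Myog counts, with Myog at 26.7% (16.1% to 39.7%) in wild-type and 21.7% (10.95% to 36.4%) in the mutant. Counts are not scaled to gene length. Per kilobase of exon (RPKM) Myog was also above Myf5 in wild-type 1 (1.68 and 1.29), wild-type 2 (2.32 and 2.17) and mutant 1 (1.593 and 1.564).

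**Figure D4:**
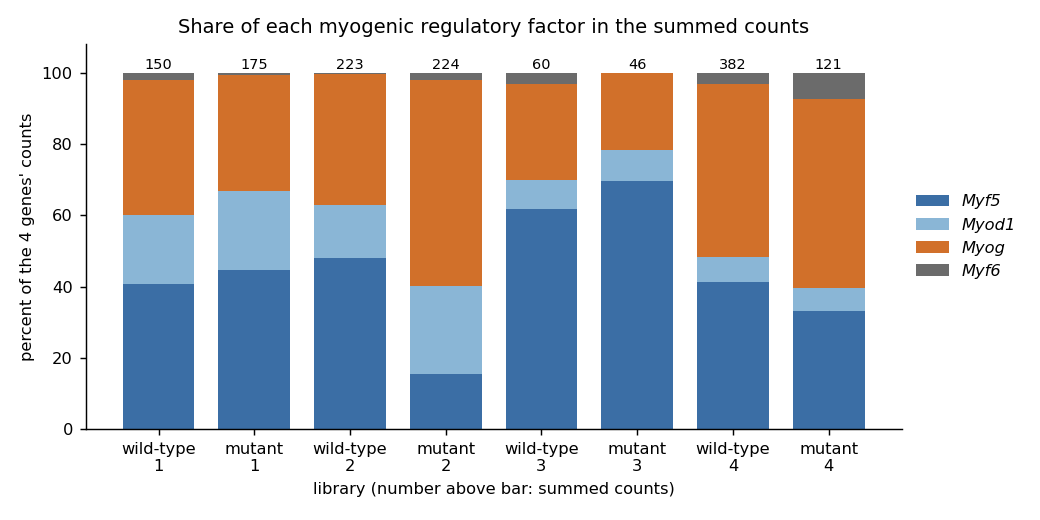
Share of Myf5, Myod1, Myog and Myf6 in their summed counts (vertical axis, percent) in each library, with the summed counts above the bars. The Myf5 share runs from 15.6% in mutant 2 to 69.6% in mutant 3.

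Ratios within a library, which do not depend on how libraries are scaled, were compared for 3 gene pairs. The log2 ratio of Myod1 to Myf5 counts was -1.06, -1.68, -2.77 and -2.53 in wild-type and -0.99, 0.64, -2.85 and -2.25 in mutants. Mutant 2 was the only library with more Myod1 than Myf5 counts. The difference of the means was 0.65 (exact permutation p = 0.514, two-sided, n = 4 each; 0.743 adjusted over the 3 ratios), and without mutant 2 it was -0.02. The Myog to Myod1 ratio was 1.65 ± 0.78 in wild-type and 1.48 ± 1.02 in mutants on the log2 scale (SD, n = 4 each; exact permutation p = 0.743, adjusted 0.743). It was higher in wild-type 4 and mutant 4, at 2.75 and 2.92, than in any other library. The Msc to Tcf21 ratio was -2.49 ± 0.63 and -2.71 ± 0.37 (exact permutation p = 0.60, adjusted 0.743). With 4 against 4 embryos the smallest p this test can give is 0.0286.

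Per kilobase of exon, which allows genes to be compared, Tcf21 led in wild-type at 7.44 ± 3.45 RPKM (SD, n = 4), followed by Myog at 2.29 ± 1.74, Myf5 at 1.80 ± 0.888 and Msc at 1.34 ± 0.852 RPKM. Lhx2 (0.566 ± 0.236) and Myod1 (0.528 ± 0.278) came next, and then Chrna1 (0.169 ± 0.0507), Myf6 (0.143 ± 0.145) and Musk (0.107 ± 0.0877). Of the 8 neighbouring steps in that order only the one from Myod1 to Chrna1, of 3.12-fold, left the ranges of mean ± SD apart. In mutants Tcf21 stood at 4.98 ± 2.20 RPKM, apart by that measure from Myog at 1.61 ± 1.14 RPKM, and the step after Lhx2 (0.535 ± 0.249 RPKM) to Chrna1 (0.157 ± 0.0651 RPKM) was the other that did so. The order was the same in both genotypes except that Lhx2 and Myod1, which differed by 1.07-fold in wild-type and 1.01-fold in mutants, changed places.

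**Figure D5:**
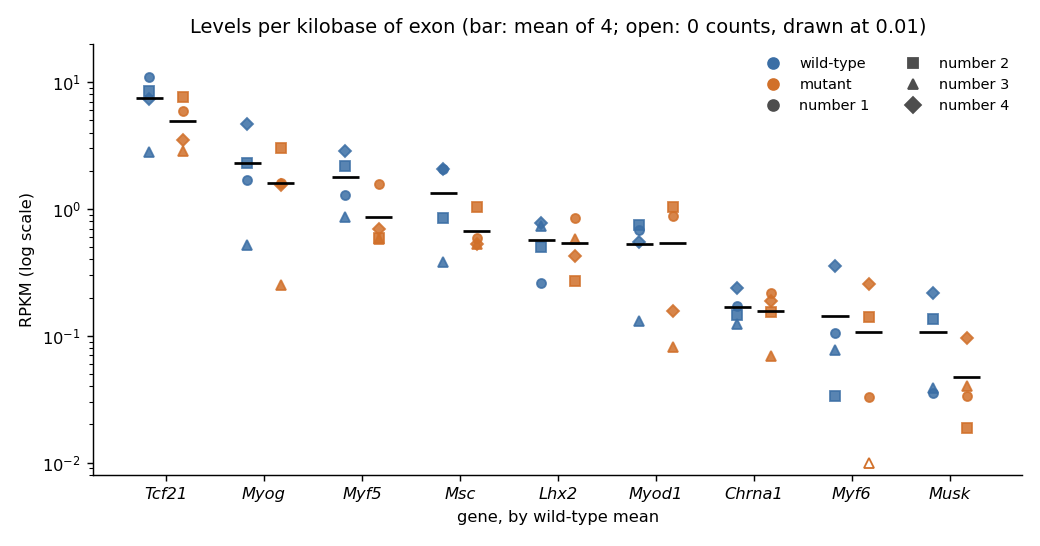
Level per kilobase of exon (RPKM, log scale) of the 9 genes in each library, ordered by the wild-type mean, with bars for group means and the 1 library without counts drawn open at 0.01. Tcf21 stands highest at 2.79 to 11.02 RPKM in wild-type, and Chrna1, Myf6 and Musk stay under 0.4 RPKM in all libraries.

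Across the 8 embryos 0 of the 36 gene pairs had a correlation that passed after adjustment. Myod1 and Tcf21 had the highest correlation of log2 CPM (Pearson r = 0.90, exact permutation p = 0.0103, adjusted p = 0.132; Spearman rho = 0.69, permutation p = 0.0694, adjusted p = 0.4996), with r = 0.75 after leaving out the libraries numbered 3. With group means removed their r was 0.92 (approximate permutation p = 0.00191, adjusted p = 0.0688), and 0.86 without the libraries numbered 3. By rank, rho was then 0.81 (approximate permutation p = 0.0218, adjusted p = 0.335). Msc and Tcf21 had r = 0.84 (exact permutation p = 0.0131, adjusted p = 0.132; rho = 0.88, permutation p = 0.00724, adjusted p = 0.261), and r = 0.89 without wild-type 1 and 4. With group means removed the r of Msc and Tcf21 was 0.81 (approximate permutation p = 0.0170, adjusted p = 0.181), and 0.48 without wild-type 1 and 3. Deviations from group means are not freely exchangeable between groups, so the p-values with group means removed are only approximate. For Myog with Chrna1, r = 0.83 (exact permutation p = 0.0109, adjusted p = 0.132; rho = 0.57, permutation p = 0.151, adjusted p = 0.544) became 0.19 without the libraries numbered 3. For Myod1 with Myog, r = 0.80 (exact permutation p = 0.0146, adjusted p = 0.132; rho = 0.69, permutation p = 0.0694, adjusted p = 0.4996) became 0.28 without the libraries numbered 3, so both relations rest on them. Lhx2 had negative values with Tcf21 (r = -0.45, rho = -0.52; exact permutation p = 0.256 and 0.197, adjusted p = 0.439 and 0.590) and with Msc (r = -0.40, rho = -0.33; exact permutation p = 0.323 and 0.428, adjusted p = 0.494 and 0.723). Without the 2 libraries farthest from the median these were -0.31 and -0.71. Each library number holds only 2 libraries, too few for a value within it.

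Across the lists of related genes and tissue markers 0 genes passed by edgeR's quasi-likelihood test. Before adjustment the number under 0.05 was 4 of 17 arch mesenchyme markers, against 1.30% of all genes tested. It was 1 of 13 tested differentiation genes (Tmod4) and 1 of 9 upstream head muscle regulators. Of 9 upstream regulators of head muscle, Tbx1 and Isl1 among them, 0 passed, 5 were higher and 4 lower, and the median log2 fold change was 0.08. Eya4, a transcriptional cofactor, was at -0.40 (SE 0.29) and Six4 at -0.11 (SE 0.12) on the log2 fold change scale.

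None of the partners and inhibitors of the myogenic factors passed. Of 8 such genes 0 passed, 3 were higher and 5 lower, with a median log2 fold change of -0.07. Id2, an inhibitor that binds the partner proteins, was at -0.31 (SE 0.17), Id3 at -0.08 (SE 0.13) and Mef2d, a cofactor of the myogenic factors, at 0.18 (SE 0.35).

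Skeletal muscle differentiation genes were present at low levels, and some of them are also expressed by heart muscle, which was part of the dissection. Of 16 genes 13 were tested, 0 passed, 5 were higher and 8 lower, with a median of -0.21. Tmod4, a tropomodulin of skeletal muscle thin filaments, was at 1.23, 1.06, 1.03 and 2.97 CPM in wild-type and at 0.251, 0.387, 0.339 and 0.614 CPM in mutants, without overlap. Of all genes tested 1.04% had groups without overlap. Tmod4 had a fitted log2 difference of -1.97 (SE 0.45, adjusted p = 0.99998 by edgeR), and -1.46 without wild-type 4. Myh8, a myosin heavy chain of developing muscle, was at -1.19 (SE 0.90), with 3.75 CPM in wild-type 4 and at most 1.23 CPM in any other library, and without wild-type 4 its value was 0.42. Klhl41, a sarcomere-associated protein, was at 0.46 (SE 0.36). Heart muscle markers were higher in mutants for 11 of 11 genes with 0 passing, at sums of 7849 to 18394 CPM in wild-type and 11528 to 24850 CPM in mutants; their part in the differentiation list was not tested.

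Neuromuscular synapse genes other than Chrna1 and Musk did not pass either, with 8 of 10 tested, 6 higher and 2 lower and a median of 0.16. Colq, which anchors acetylcholinesterase, was at 0.57 (SE 0.37), and Agrn and Lrp4, the ligand and coreceptor of Musk, were at 0.18 (SE 0.13) and 0.10 (SE 0.12). Agrn and Lrp4 were abundant at 206.3 ± 28.9 and 73.7 ± 6.36 CPM in wild-type (SD, n = 4 each), whereas the receptor subunits Chrnd and Chrne were too scarce to test.

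Markers of the tissue around the muscle progenitors differed in direction from each other. Arch mesenchyme markers were lower in mutants for 15 of 17 genes, with 0 passing and a median log2 fold change of -0.40, and Msx1, Nkx3-2 and Prrx1 had the smallest p at -0.99 (SE 0.31), -0.92 (SE 0.30) and -0.45 (SE 0.17). Their sums were 349.1, 622.5, 499.0 and 572.9 CPM in wild-type 1 to 4 and 492.1, 321.5, 381.5 and 335.6 CPM in mutant 1 to 4. Trunk and limb muscle precursor and somite genes had 4 of 7 tested genes higher and 3 lower with a median of 0.08, and their sum was 40.2 to 61.0 CPM in wild-type and 27.8 to 74.4 CPM in mutants, with Uncx at 0 in at least 1 library and Lbx1, a marker of migrating limb muscle precursors, at 0.343 CPM in wild-type. Pax7 was at 1.19 (SE 0.87), Met at -0.12 (SE 0.15) and Meox2 at -0.26 (SE 0.62). Epicardium markers had 6 of 8 lower (median -0.26), with Sema3d at -0.31 (SE 0.15), Aldh1a2 at -0.89 (SE 0.64) and Msln at 0.76 (SE 0.60). Erythroid markers were lower for 7 of 7 (median -0.77), with Hbb-bh1 and Hbb-y at -0.90 (SE 0.52) and -0.77 (SE 0.54), and forebrain, eye and neural markers had 5 of 6 tested genes higher (median 0.52), with Neurod1 at 0.89 (SE 0.83) and Elavl4 at 0.82 (SE 0.85). In heart muscle Ttn, Myh7 and Nppa were at 0.65 (SE 0.33), 0.70 (SE 0.40) and 0.36 (SE 0.26). The part of these tissues in the values of the muscle genes was not tested.

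The genes with the most similar profile over the 8 libraries were found by the root mean square difference of log2 CPM after centring each gene, among 13658 genes with a mean of at least 1 CPM. For Myf5 these were Rec8, Barx2 and Tagap1, at 0.30, 0.41 and 0.42, where the median over all genes was 0.82. For Myod1 they were Mpeg1, Inhba and Tbx5, at 0.38 to 0.39 with a median of 1.17, and Tbx5, a transcription factor of heart and forelimb, ran from 6.60 to 40.6 CPM in wild-type. For Msc they were Rbm46, Adamts20 and Myh11, at 0.35, 0.37 and 0.39 with a median of 0.85. For Tcf21 they were Dhrs3, an enzyme of retinoid metabolism, Myrf and the elastin gene Eln, at 0.21, 0.24 and 0.24 with a median of 0.73. The named genes were picked for the smallest of 13658 distances. That they lie below the median was therefore fixed in advance and is no test of a shared profile. A gene flat over the 8 libraries would lie at 0.79 from Myf5, 1.16 from Myod1, 0.83 from Msc and 0.71 from Tcf21.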

How the data were processed

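RNA was taken from arches and hearts of single embryos, and stranded, ribosomal RNA-depleted libraries were built from 300 ng of each RNA, per the labels' protocols. TopHat2 2.0.11, HTSeq 0.6.1, edgeR 3.14 and mm10 are named, per the submitters' processing notes; no source used here gives the annotation or strand setting. The authors deposited raw counts per gene symbol, which were used for all values, and a table of their own comparison with a log2 fold change and a p-value per gene, quoted only by name. Their scaled table was not used.

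Genes passing filterByExpr (14861) were compared between genotypes with edgeR 4.0.16 (quasi-likelihood, TMM, R 4.3.3, Benjamini-Hochberg adjustment over all genes). The procedure was tested on simulated data with 1 coefficient of variation for all genes (26.3%) and changes only in well-counted genes. That test does not show which changes could be found in the scarcer and more variable muscle genes. Intervals are 95% intervals on the total degrees of freedom of that fit. Alternatives used DESeq2 1.42.0, limma-voom (limma 3.58.1), other filters and scaling, a replicate block and each library left out. Log2 CPM uses a prior count of 2, and ratios add 0.5 to each count. Permutation tests are two-sided and exact, except that those of correlations with group means removed are approximate. RPKM divides by the union of exons in GENCODE M21 (GRCm38). Of each list the up to 3 genes with the smallest p are named, all 9 muscle genes are, and so are the 3 nearest profiles of Myf5, Myod1, Msc and Tcf21. Some genes that the rule would name are not reported here. The genes and lists were chosen with earlier results of these data known. The labels number both groups 1 to 4 and do not state pairs. Across genes, deviations of same-numbered libraries correlated at 0.18 to 0.71, with -0.65 to 0.67 for other pairs. Mutant 2 correlated more with wild-type 1 (0.52) than with wild-type 2 (0.19). Mutant 4 correlated more with wild-type 3 (0.67) than with wild-type 4 (0.18). Pairing by number, as used for the block, is thus an assumption that these correlations do not establish. Tmem8c and Gm7325 stand for Mymk and Mymx.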

Additional observations from a re-analysis of the deposited data

Results flagged for a closer look

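Of 46 groups of 4 libraries examined, 4 held a library far from the other 3 (by Dixon's ratio); chance gives about 1 in 20. Mutant 1 had 3.26 CPM of Myf5 against 1.21 to 1.44 CPM in the other mutants, and without it the Myf5 log2 fold change was -1.52. Mutant 2 had 2.64 CPM of Msc against 1.34 to 1.504 CPM in the other mutants. Wild-type 1 had 23399 CPM of erythroid markers against 4731 to 7519 CPM in the other wild-type libraries. The summed upstream head muscle regulators were at 222.0 CPM in wild-type 1 against 309.5 to 322.6 CPM in the other wild-type libraries; mutant 1, of the same number, was at 224.9 CPM.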

How the results depend on the processing

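No muscle gene passed under any of 15 alternatives (14 for Chrna1, which a limit of 1 CPM removes): other scaling and filters, DESeq2, limma-voom, the replicate block, each library left out, and both libraries numbered 3 left out, which was chosen after seeing the data. Myf5, Msc and Tcf21 were lower in all 15, between -1.52 and -0.76, -1.30 and -0.71, and -0.86 and -0.33 with 1 library left out. Sign changed with 1 library left out for Myod1, Lhx2, Chrna1 and Myog: Myod1 ran from -0.52 to 0.38, Lhx2 from -0.40 to 0.14, Chrna1 from -0.30 to 0.13 and Myog from -1.02 to 0.089. Myod1 was at -0.44 by limma-voom and -0.24 with the replicate block. Without both libraries numbered 3, Lhx2 was at 0.014 and Chrna1 at 0.0082, 0 genes were called in all (234 under an unadjusted p of 0.05), and the cause was not tested. The number of tested members that were lower ran from 3 to 7 with 1 library left out, their median from -0.86 to 0.03, and genes called over the whole table from 0 to 1. Without a filter 8 of 9 genes were lower. The block changed no call and raised the genes at an unadjusted p under 0.05 from 193 to 745; DESeq2 had 241 and limma-voom 210. The ratio differences ran from -0.022 to 1.14 (Myod1 to Myf5), -0.655 to 0.19 (Myog to Myod1) and -0.46 to 0.029 (Msc to Tcf21) with 1 library left out; with 4 pairs the sign-flip test of the block cannot pass 0.05. Correlated gene pairs that passed ran from 0 to 2 with 1 library left out, the 2 without wild-type 4. Neighbours in the level order with overlapping ranges numbered 5 to 8 in wild-type and 6 to 8 in mutants; with the longest transcript as length Msc stood above Myf5 in both groups. Depth limits Myf6, Musk, Chrna1 and, in the libraries numbered 3, Myod1.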
